A study of Homo sapiens with 14 samples.

Results

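AURKA, AURKB, BUB1, BUB1B, TTK, NEK2, BIRC5, CDC20, UBE2C and PTTG1 are genes of the Aurora kinases, the spindle checkpoint and the machinery that the checkpoint holds back. They were chosen by name, and all 10 were found among the 12425 genes of the deposited table of RNA polymerase II (RNAPII) occupancy. The assay was ChIP-seq, the sequencing of DNA that comes down with an antibody to a chromatin protein, in human foreskin fibroblasts of the line BJ hTERT, which telomerase keeps dividing. The series asks how inhibition of ATR, the kinase that answers to stalled replication forks, affects RNAPII transcription in S phase. There were 14 libraries, 7 with an antibody to the N-terminal domain of RPB1, the largest subunit (total RNAPII), and 7 with an antibody to RPB1 phosphorylated on serine 2 (Ser2), the form found on elongating polymerase. For each antibody there was 1 library of cells given the ATR inhibitor (ATRi) and 1 of cells given its vehicle DMSO at each of 16, 19 and 22 h. A further library at 14 h carries no treatment name and is headed CTR. The hour from which time was counted, the identity of the inhibitor and any synchronisation of the cells are not given in the sources used here. The protocol names only antibodies to histones, so the RNAPII antibodies are known from the sample descriptions. All groups are the same line, with 1 library per group and no genotype difference.

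The kinases AURKA and AURKB drive spindle assembly and the correction of faulty chromosome attachments. BUB1, BUB1B and TTK signal from unattached kinetochores and so keep CDC20 from activating the anaphase-promoting complex, while UBE2C, the ubiquitin-conjugating enzyme of that complex, and PTTG1 (securin), its substrate, act in the step that the checkpoint delays. These genes are known to be transcribed late in the cell cycle, and many of them are repressed earlier through a promoter element called the CHR, the binding site of the DREAM and MuvB complexes.

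Promoter windows from RefSeq (250 bases before to 50 after the start, GRCh38.p14) were used for 6 of the 10 genes. A CHR motif, TTTGAA or TTCGAA on either strand, was found for 3 of these genes. The motif was in 16.4% of all 35097 windows and in 11.9% of the 12626 windows of genes named in the table. The sequence CCAAT, on either strand, was found for 5 of the 6 genes, against 34.6% of all windows. AURKB and PTTG1 had 2 windows each, both with CCAAT and without a CHR motif, and were counted once. Genes are thus set against windows in these shares. The 2 AURKB windows reach up to chr17:8210475 and chr17:8210499 (minus strand). They lie inside the listed span of the gene, which starts at base 8210600. The bases before that start were not searched, so whether a CHR motif lies there is not known from these windows. The 3 windows with a CHR motif are shown because the element is the best known shared feature of this gene class. They run 5′ to 3′ to base 30 after the start, with CHR and CCAAT matches on either strand in capitals, for BUB1 at chr2:110678034-110678313 (minus strand), BUB1B at chr15:40160819-40161098 (plus strand) and CDC20 at chr1:43358731-43359010 (plus strand).
BUB1: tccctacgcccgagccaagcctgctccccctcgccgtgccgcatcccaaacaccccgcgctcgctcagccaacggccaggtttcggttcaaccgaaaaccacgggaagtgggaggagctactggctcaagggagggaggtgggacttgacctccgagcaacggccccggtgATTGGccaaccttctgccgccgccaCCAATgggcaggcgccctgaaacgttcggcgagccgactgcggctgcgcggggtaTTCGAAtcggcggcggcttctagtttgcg
BUB1B: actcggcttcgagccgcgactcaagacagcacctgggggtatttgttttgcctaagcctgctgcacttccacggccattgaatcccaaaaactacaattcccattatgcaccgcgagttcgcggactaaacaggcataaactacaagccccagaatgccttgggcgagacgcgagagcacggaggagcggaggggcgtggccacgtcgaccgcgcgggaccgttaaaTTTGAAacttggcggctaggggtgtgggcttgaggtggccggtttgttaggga
CDC20: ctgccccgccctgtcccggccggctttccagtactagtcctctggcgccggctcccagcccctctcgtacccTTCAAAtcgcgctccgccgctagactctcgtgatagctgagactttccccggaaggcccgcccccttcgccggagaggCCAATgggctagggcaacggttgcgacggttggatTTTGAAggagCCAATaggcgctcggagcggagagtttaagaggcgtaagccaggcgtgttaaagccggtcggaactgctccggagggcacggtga
The match in BUB1 began at base 2 after the start, that in BUB1B began 23 bases before it, and CDC20 held one 65 bases and one on the other strand 178 bases before it. BUB1B was the 1 gene of the 6 with no CCAAT. A match describes the letters of a window and no more.

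The libraries held 17181179 to 62368915 reads by whole-read recovery from the table. Values count the reads on a gene per 1000000 reads of its library (RPM), with no division by gene length. The share of library reads that fell in the listed nuclear genes was 63.5% to 72.0% in the 4 libraries of 19 h and 35.8% to 57.4% in the other 10, so RPM moved for most genes together between hours. Fibroblast markers (10 of 10 in the table, COL1A1 and VIM among them) summed to 1089 to 2687 RPM in total RNAPII. Of 7 keratinocyte markers only KRT14 was listed, with 0.236 to 0.905 RPM in total RNAPII, none of 4 blood and none of 4 melanocyte markers was listed, and of 5 endothelial markers VWF and TEK were, summing to 27.9 to 80.8 RPM in total RNAPII and to 51.8 to 87.7 RPM in Ser2. PECAM1, CDH5 and KDR were not listed. All libraries came from the same fibroblast line, and these sums are not divided by gene length. Why VWF and TEK held reads was not tested.

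AURKB and CDC20 carried the densest RNAPII of the 10 genes and NEK2 the sparsest. In RPM per kb of gene, which allows genes of unlike length to be compared, the mean level over the 7 total RNAPII libraries was 6.11 for AURKB, 5.62 for CDC20, 3.31 for UBE2C, 2.41 for BIRC5, 2.32 for PTTG1, 1.04 for BUB1, 0.909 for BUB1B, 0.853 for TTK, 0.842 for AURKA and 0.504 for NEK2. The ranges of neighbours over the 7 libraries overlapped in every case: AURKB covered 2.15 to 10.2 and CDC20 2.74 to 8.08 RPM per kb, for example. Within single libraries some neighbours kept their order in all 7. These were CDC20 above UBE2C, UBE2C above BIRC5, PTTG1 above BUB1, BUB1 above BUB1B and AURKA above NEK2. The other neighbours changed places in at least 1 library. The order in Ser2 was the same except that AURKA stood before TTK. AURKB lay at percentiles 91.9 to 97.5 of all listed genes by density over the 14 libraries, while NEK2 lay at percentiles 16.5 to 40.3. The reads behind a value ran between 74 (UBE2C, Ser2 at 14 h) and 3575 (BUB1B, total RNAPII at 19 h with ATRi).

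AURKB (ENSG00000178999), the catalytic subunit of the chromosomal passenger complex, spans chr17:8204733-8210600 on the minus strand, 5.868 kb. Its total RNAPII was 12.6 RPM at 14 h, then 24.6, 54.3 and 51.7 RPM at 16, 19 and 22 h with ATRi, against 21.9, 60.1 and 25.7 RPM with DMSO. In Ser2 it was 9.97 RPM at 14 h, then 9.98, 43.7 and 27.0 RPM with ATRi, against 9.20, 44.9 and 20.9 RPM with DMSO. Both treatments were high at 19 h with both antibodies, and in total RNAPII the 22 h library with ATRi stayed near the 19 h level while that with DMSO did not. The highest library was 4.76 times the lowest in total RNAPII and 4.89 times in Ser2, against 2.10 and 2.16 times for the median gene.

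BIRC5 (ENSG00000089685, chr17:78214186-78225636, plus strand, 11.5 kb) encodes survivin, a partner of AURKB in the passenger complex. Its total RNAPII was 13.3 RPM at 14 h, then 22.7, 40.1 and 36.0 RPM with ATRi and 21.3, 40.8 and 19.3 RPM with DMSO at 16, 19 and 22 h. Its Ser2 was 13.2 RPM at 14 h, then 12.6, 35.8 and 20.0 RPM with ATRi and 10.4, 32.8 and 18.9 RPM with DMSO. The pattern was that of AURKB with a smaller range, and ATRi and DMSO stood apart at 22 h in total RNAPII and not in Ser2.

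AURKA (ENSG00000087586, chr20:56369389-56392337, minus strand, 22.9 kb), the Aurora kinase of the spindle poles, moved less. Its total RNAPII was 11.4 RPM at 14 h, then 18.3, 24.8 and 25.5 RPM with ATRi and 14.5, 22.5 and 18.2 RPM with DMSO. Its Ser2 was 10.9 RPM at 14 h, then 12.4, 20.7 and 19.5 RPM with ATRi and 9.75, 16.7 and 16.6 RPM with DMSO. In Ser2 the 19 h and 22 h libraries of each treatment were close to each other, and ATRi was above DMSO at each hour. AURKA starts 34 bases from CSTF1, a gene on the other strand, so reads at their shared start cannot be assigned to one of them alone.

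BUB1 (ENSG00000169679, chr2:110637698-110678114, minus strand, 40.4 kb), the kinetochore kinase that phosphorylates histone H2A, had 25.5 RPM in total RNAPII at 14 h, then 37.4, 56.6 and 58.1 RPM with ATRi and 29.8, 53.9 and 32.9 RPM with DMSO. Its Ser2 was 21.3 RPM at 14 h, then 23.1, 49.8 and 38.8 RPM with ATRi and 20.8, 49.7 and 30.5 RPM with DMSO. At 19 h the Ser2 libraries of both treatments were level, and at 22 h ATRi was above DMSO with both antibodies. BUB1B (ENSG00000156970, chr15:40161023-40221136, plus strand, 60.1 kb), which encodes BUBR1 of the mitotic checkpoint complex, ran between 32.3 RPM at 14 h and 76.8 RPM at 19 h with ATRi in total RNAPII, and between 27.8 and 70.4 RPM in the same pair of conditions in Ser2. RefSeq places the readthrough gene BUB1B-PAK6 and LOC107984763 together over 81.9% of that span, so reads there cannot be assigned to BUB1B alone.

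TTK (ENSG00000112742, chr6:80003887-80042527, plus strand, 38.6 kb), the checkpoint kinase also called MPS1, ran between 24.4 RPM at 14 h and 44.1 RPM at 19 h with ATRi in total RNAPII. In Ser2 its lowest library was 16 h with DMSO, 17.9 RPM, and its highest 19 h with ATRi, 36.9 RPM. NEK2 (ENSG00000117650, chr1:211658657-211675630, minus strand, 17.0 kb), a kinase of centrosome separation, was the flattest of the 10. It ran between 6.81 RPM at 14 h and 11.9 RPM at 22 h with ATRi in total RNAPII, a ratio of 1.75, and between 5.89 and 9.08 RPM in the same conditions in Ser2, a ratio of 1.54. Both ratios lay below those of the median gene given above. So did those of TTK, 1.80 in total RNAPII and 2.06 in Ser2, and that of AURKA in Ser2 alone, 2.12.

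CDC20 (ENSG00000117399, chr1:43358955-43363203, plus strand, 4.249 kb) activates the anaphase-promoting complex. Its total RNAPII was 11.6 RPM at 14 h, then 21.1, 33.8 and 32.8 RPM with ATRi and 16.7, 34.3 and 16.9 RPM with DMSO. Its Ser2 was 9.75 RPM at 14 h, then 9.47, 25.4 and 20.4 RPM with ATRi and 7.08, 21.6 and 13.4 RPM with DMSO. With DMSO the 22 h level in total RNAPII was back at that of 16 h, while with ATRi it was near that of 19 h. UBE2C (ENSG00000175063, chr20:45812576-45816957, plus strand, 4.382 kb) had 5.76 RPM in total RNAPII at 14 h, then 11.1, 21.1 and 20.3 RPM with ATRi and 9.40, 23.0 and 10.9 RPM with DMSO. PTTG1 (ENSG00000164611, chr5:160421822-160428744, plus strand, 6.923 kb) had 9.49 RPM at 14 h, then 11.7, 23.0 and 20.3 RPM with ATRi and 12.7, 24.9 and 10.1 RPM with DMSO. In PTTG1 the DMSO level at 22 h was below that at 16 h, with a log2 ratio of -0.32 against -0.26 for the median gene. PTTG1 was the 1 gene of the 10 with ATRi below DMSO at 16 h in total RNAPII. In Ser2, UBE2C had 4.08 RPM at 14 h, then 4.96, 16.4 and 10.7 RPM with ATRi and 4.47, 14.6 and 8.40 RPM with DMSO. PTTG1 had 6.28 RPM in Ser2 at 14 h, then 5.48, 17.7 and 11.1 RPM with ATRi and 5.25, 16.8 and 7.59 RPM with DMSO. Both genes stood highest at 19 h under either treatment, and at 22 h their ATRi libraries were above their DMSO libraries.

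**Figure D1:**
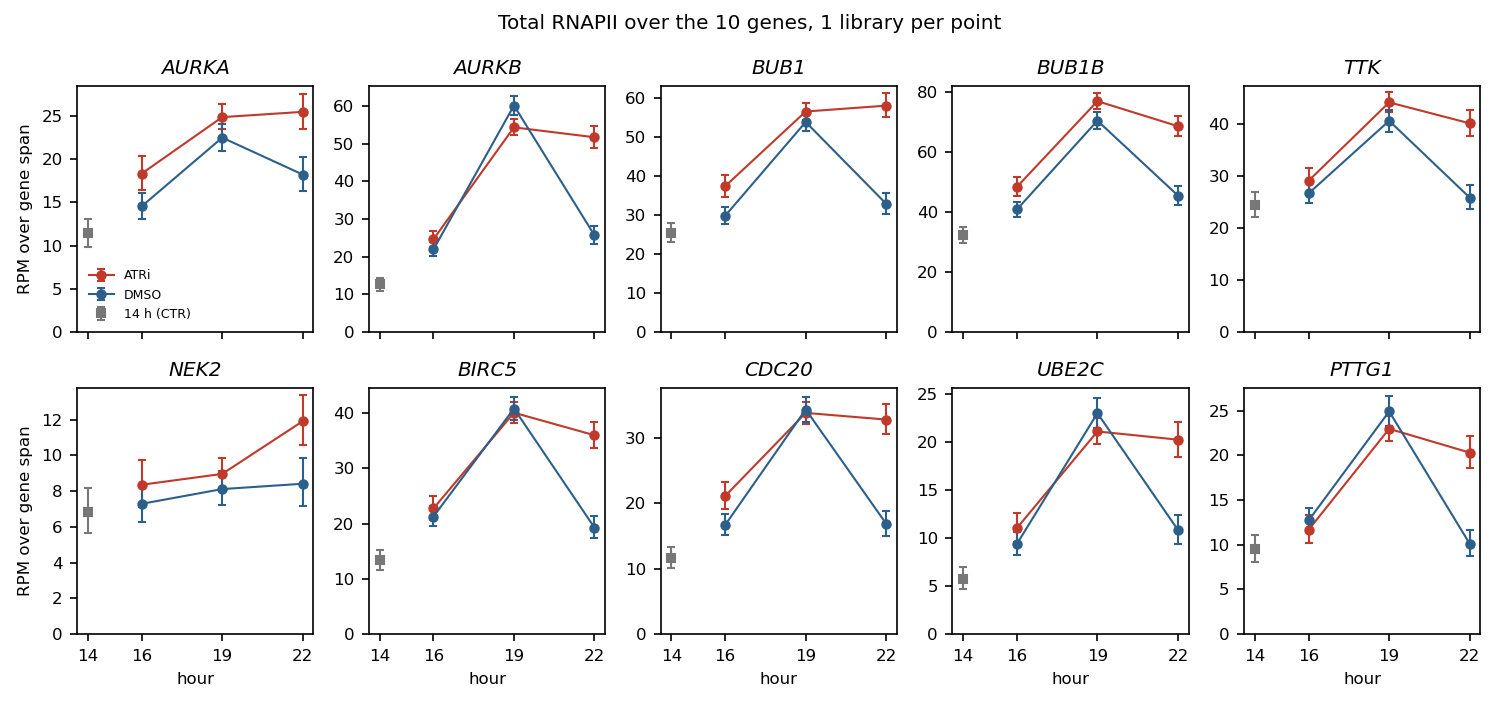
Total RNAPII in RPM over the gene span (y, from 0) at each hour (x) for the 10 genes, 1 library per point, with ATRi in red, DMSO in blue and the 14 h library in grey. Bars are exact 95% Poisson intervals of the read count and cover counting error only. The curves lie close at 19 h and part at 22 h, where AURKB has 51.7 RPM with ATRi and 25.7 RPM with DMSO. The median gene of all genes tested also has ATRi above DMSO at 22 h, by 0.50 on the log2 scale.

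**Figure D2:**
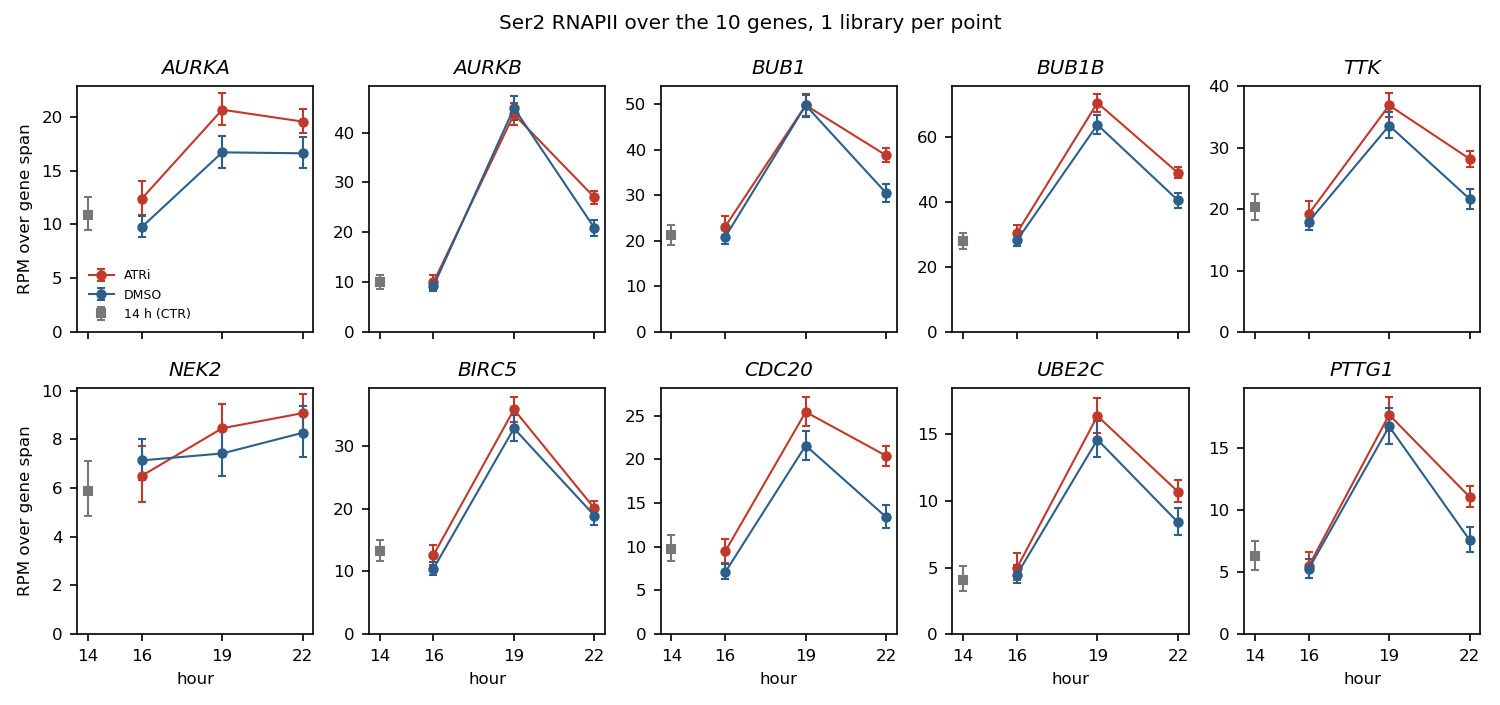
Ser2 RNAPII in RPM over the gene span (y, from 0) at each hour (x) for the same genes, with the same colours and bars. The libraries of both treatments peak at 19 h in most genes, AURKB reaching 43.7 RPM with ATRi and 44.9 RPM with DMSO, while NEK2 stays between 5.89 and 9.08 RPM.

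The change over time was tested within each antibody with limma on log2(RPM + 0.5), taking the ATRi and DMSO libraries of an hour as stand-ins for replicates. No label says that libraries came from separate cultures, so p-values measure only the spread between these libraries. In a population of cells, a larger share of cells on the way to mitosis and more polymerase per cell cannot be told apart.

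In Ser2 all 10 genes were higher at 22 h than at 16 h. At an adjusted p of 0.05 over all genes, 10 of 10 rose, where 39.0% of the 11989 genes tested did. Their median change was 0.71 on the log2 scale, against 0.21 for all genes. AURKB rose most, by 1.27 ± 0.11 (log2, moderated SE, limma adjusted p = 1.2e-06), the estimate at percentile 99.97 of all genes. CDC20 followed at 0.97 ± 0.11, UBE2C at 0.94 ± 0.11, BIRC5 at 0.74 ± 0.10, PTTG1 at 0.72 ± 0.12, AURKA at 0.69 ± 0.10, BUB1 at 0.64 ± 0.10 and BUB1B at 0.60 ± 0.09. TTK, at 0.40 ± 0.10 (limma adjusted p = 0.00417), and NEK2, at 0.33 ± 0.12 (limma adjusted p = 0.0375), rose least. With each library centred on its median gene, which takes out a shift shared by all genes, 8 of 10 still rose, where 10.2% of all genes did, and TTK (0.18) and NEK2 (0.10) no longer passed. On whole reads edgeR called 8 of the 10 higher, where 8.79% of all genes were, and DESeq2 also 8, where 6.29% of the 9897 genes to which it gave an adjusted p were.

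Each treatment was also read alone, with 1 library per hour and no test. In Ser2 the ratio of 22 h to 16 h was above that of the median gene for all 10 genes with ATRi and for all 10 with DMSO. With ATRi it ran between 0.45 for NEK2 and 1.39 for AURKB (log2, median gene 0.25), and with DMSO between 0.20 for NEK2 and 1.14 for AURKB (median gene 0.16).

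**Figure D3:**
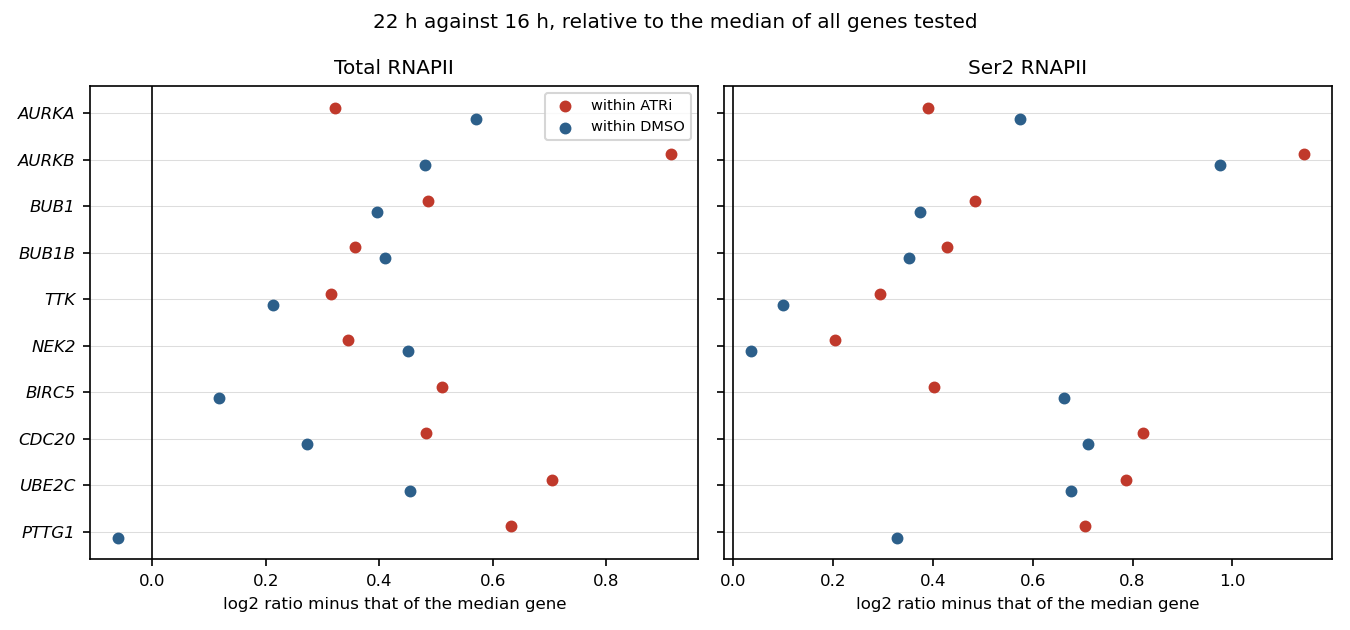
Log2 ratio of RPM at 22 h to 16 h minus that of the median gene (x) for each gene (y), within ATRi (red) and within DMSO (blue), 1 pair of libraries per point, total RNAPII at left and Ser2 at right. All points in Ser2 lie to the right of 0, with AURKB farthest, and in total RNAPII all but PTTG1 within DMSO do.

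The nearest listed neighbours were read in the same comparison. CSTF1, which shares its start region with AURKA, was at 0.26 (limma adjusted p = 0.0609), and SLU7, 111 bases from PTTG1 on the other strand, was at 0.13 (0.407). DNTTIP1, 1149 bases from UBE2C, was at 0.14 (limma adjusted p = 0.302). ELOVL1, a fatty acid elongase gene that ends 194 bases from the end of CDC20 on the other strand, rose by 0.72 (limma adjusted p = 1.2e-04). ChIP reads carry no strand, and whether fragments from ELOVL1 add to the value of CDC20 was not tested.

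In total RNAPII the same comparison called no gene of all 12031 in either direction (0%) with limma, and 1 of the 10 genes, AURKB, had an unadjusted p below 0.05. Over all genes, 72 were higher and 283 lower at that unadjusted level. On whole reads edgeR called 0 genes and DESeq2 called 24 higher (0.216% of the 11098 genes to which it gave an adjusted p) and 26 lower (0.234%), AURKB among the higher ones. With the trend on read density over all genes taken out, 7 of the 10 rose, where 4.08% of all genes did. The estimates of all 10 lay above 0 and above the median gene (-0.06), between 0.21 ± 0.25 for TTK and 0.64 ± 0.26 for AURKB. The ratios differed by treatment: with ATRi the 10 ratios of 22 h to 16 h ran between 0.46 and 1.06 with a median of 0.63, and with DMSO between -0.32 and 0.31 with a median of 0.15. The medians of all genes in the same pairs were 0.14 with ATRi and -0.26 with DMSO. That difference between treatments has 1 library on each side of each ratio and was not tested.

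The test of whether the change from 16 h differed between antibodies, Ser2 minus total, called 0 of 12013 genes (0%) with limma, and also 0 with edgeR and with DESeq2. At an unadjusted p below 0.05, 433 genes were higher and 1 lower. The 10 genes ran between -0.01 ± 0.25 for NEK2 and 0.65 ± 0.30 for CDC20 (limma adjusted p = 0.504), with a median of 0.36 against 0.29 for all genes. With median centring 5 of the 10 estimates lay above 0 in place of 9, with a median of 0.06, and with the density trend removed 3 did, with a median of -0.04.

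At 19 h against 16 h, 9 of the 10 genes rose in Ser2 and NEK2 did not pass, where 85.9% of all genes rose. AURKB rose by 2.15 ± 0.11 (limma adjusted p = 1.3e-11), UBE2C by 1.62 ± 0.11, PTTG1 by 1.60 ± 0.12, BIRC5 by 1.54 ± 0.10 and CDC20 by 1.46 ± 0.11. BUB1B rose by 1.18 ± 0.09, BUB1 by 1.16 ± 0.10, TTK by 0.91 ± 0.10 and AURKA by 0.73 ± 0.10, the last 2 near the median gene at 0.90, so that AURKA came out at -0.12 with median centring and TTK at 0.05. NEK2 was at 0.20 ± 0.12 (limma adjusted p = 0.113) and fell by 0.65 relative to the median gene (limma adjusted p = 3.6e-05 with centring). With centring 7 of the 10 rose and 1 fell, where 35.4% and 31.4% of all genes did.

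In total RNAPII 8 of the 10 rose at 19 h, where 39.8% of all genes did, and AURKA (0.52) and NEK2 (0.12) did not pass. AURKB rose by 1.28 ± 0.26 (limma adjusted p = 7.5e-04) and UBE2C by 1.08 ± 0.29 (0.00764). These were also the 2 that rose with median centring, by 0.80 and 0.60, where 3.75% of all genes did, and NEK2 then stood at -0.36. The share of reads in listed genes was highest at 19 h, as given above. The calls on the deposited scale of BUB1, BUB1B, TTK, BIRC5, CDC20 and PTTG1 ended with centring. On whole reads edgeR and DESeq2 each called only AURKB of the 10 higher, where 3.15% and 2.88% of all genes were, and 2 of the 10 passed with the density trend removed (10.0% of all genes).

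At 22 h against 19 h, 3 of the 10 genes (AURKB, BIRC5 and PTTG1) fell in total RNAPII, where 56.6% of all genes did, and 8 (not AURKA and NEK2) fell in Ser2, where 84.3% did. With median centring these falls were gone in total RNAPII, and NEK2 stood higher there (1 of 10, against 5.83% of all genes). In Ser2 with centring, AURKA and NEK2 rose and AURKB fell, where 24.2% of all genes rose and 27.7% fell. With the density trend removed, 5 of the 10 rose with each antibody, where 4.62% of all genes did in total RNAPII and 6.87% in Ser2. On whole reads edgeR and DESeq2 each called 1 of the 10 higher in total RNAPII (7.51% and 10.2% of all genes) and 2 in Ser2 (26.4% and 21.9%).

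Taken relative to the median gene of each library and centred on each antibody, the mean level of the 10 genes was lowest at the earliest hours and highest at 22 h with ATRi. In total RNAPII the mean (log2) was -0.38 at 14 h, then -0.12, 0.13 and 0.40 with ATRi at 16, 19 and 22 h and -0.25, 0.08 and 0.13 with DMSO. In Ser2 it was -0.27 at 14 h, then -0.22, 0.17 and 0.32 with ATRi and -0.28, 0.11 and 0.17 with DMSO. The mean with ATRi lay above that with DMSO at each of the 3 hours with each antibody, by least at 19 h in total RNAPII. Gene by gene, the ratio of ATRi to DMSO was above that of the median gene for 9, 6 and 8 of the 10 in total RNAPII at 16, 19 and 22 h. In Ser2 it was so for 8 at each hour. Each mean comes from 1 library, and these differences were not tested.

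The short genes of the group had the larger estimates against 16 h in Ser2 and, at 19 h, in total RNAPII. In total RNAPII at 22 h this was not so. The 5 genes under 12 kb (AURKB, BIRC5, CDC20, UBE2C and PTTG1) rose by 1.46 to 2.15 in Ser2 at 19 h against 16 h, and the 5 longer ones stood between 0.20 and 1.18. At 22 h against 16 h the ranges were 0.72 to 1.27 for the short genes and 0.33 to 0.69 for the long ones. The 2 classes thus did not overlap in either comparison. At 22 h, however, PTTG1 (0.72) of the short genes and AURKA (0.69) of the long ones lay closer together than the SE of either. In total RNAPII at 19 h against 16 h the ranges were 0.84 to 1.28 (short) and 0.12 to 0.72 (long), also without overlap. At 22 h against 16 h in total RNAPII the classes did overlap. The short genes stood at 0.23 to 0.64 (median 0.32) and the long ones at 0.21 to 0.39 (median 0.34). At 22 h against 19 h the short genes had the lower medians, -0.61 in total RNAPII and -0.80 in Ser2, against -0.33 and -0.50 for the long ones. The same order held over all genes, with medians of -0.79 (shorter) and -0.55 (longer) in total RNAPII and of -0.85 and -0.62 in Ser2. Over all genes in Ser2 the shorter and longer genes had medians of 1.15 and 0.81 at 19 h against 16 h. At 22 h against 16 h their medians in Ser2 were 0.28 and 0.18. In total RNAPII at 19 h against 16 h they were 0.65 and 0.49. The changes in Ser2 also ordered with read density, as a description, with Spearman's rho of 0.89 and 0.96 over the 10 genes at 19 h and 22 h and of 0.86 and 0.66 over all genes, all from the same libraries. With the trend on read density over all genes taken out, 7 of the 10 genes rose in Ser2 at 22 h (4.60% of all genes) and 1, AURKB, at 19 h (15.4% of all genes).

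**Figure D4:**
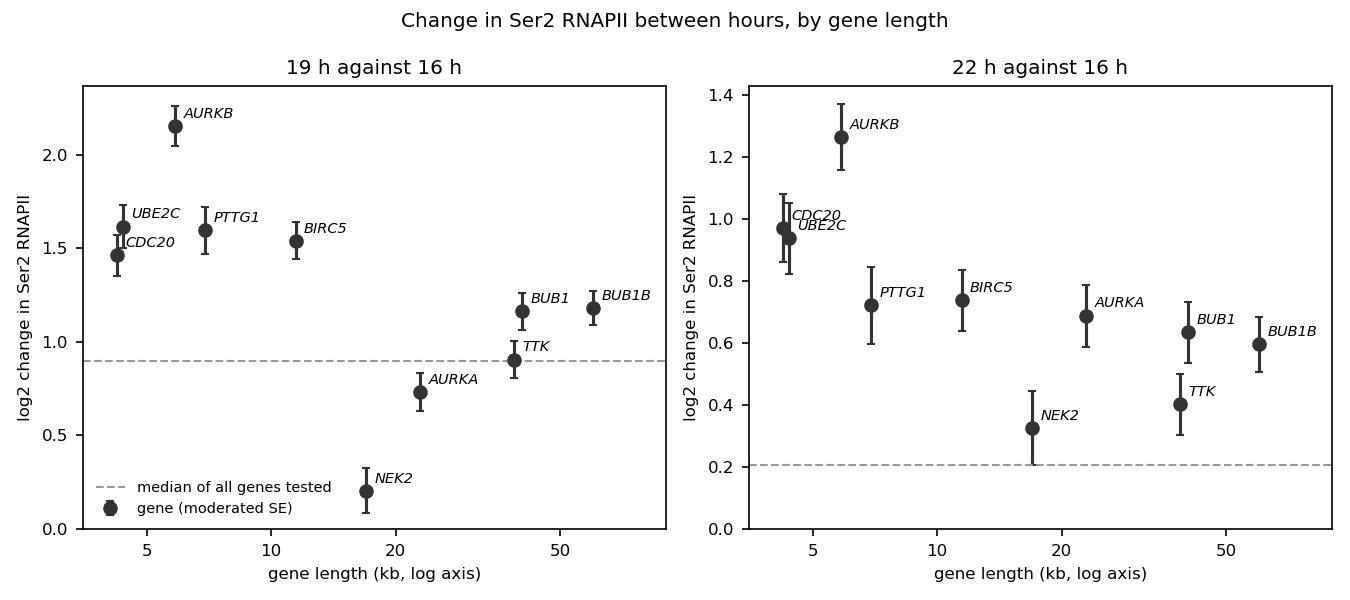
Log2 change in Ser2 RNAPII (y) against gene length in kb (x, log axis) for the 10 genes, 19 h against 16 h at left and 22 h against 16 h at right. Bars are moderated SEs from limma and the dashed line is the median of all genes tested. The genes under 12 kb lie at 1.46 or more at left and at 0.72 or more at right, above all longer genes. At right PTTG1 (0.72) and AURKA (0.69) lie closer together than the SE of either.

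Other genes of the pathway were taken from lists and described by counts in Ser2 at 22 h against 16 h, where 39.0% of all genes rose and 10.2% did with centring. Of 16 genes of the checkpoint and the passenger complex, 14 were tested, 10 rose and 5 rose with centring. The highest were INCENP, the scaffold of the passenger complex, at 0.94 and BUB3, the partner of BUB1, at 0.83, and the lowest that passed were ZWILCH at 0.30 and KNTC1 at 0.29, both of the complex that brings dynein to kinetochores. The median of the 14 was 0.34, below that of the 10 genes (0.71) and above that of all genes (0.21).

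Of 19 genes of the anaphase-promoting complex and its cofactors, 17 were tested, 12 rose (39.0% of all genes) and 8 rose with centring (10.2%). ESPL1, separase, was at 0.86 and the subunit ANAPC13 at 0.75, and the lowest that passed were the subunits CDC23 at 0.35 and CDC16 at 0.30. Of 17 kinases and activators of mitotic entry, all tested, 12 rose and 6 rose with centring, to be read against the same shares. CCNB1 (cyclin B1) was at 0.96 and CCNA2 (cyclin A2) at 0.76, and CDC25C, the phosphatase that activates CDK1, was at 0.37 and NEK9 at 0.29. PKMYT1, an inhibitory kinase of CDK1, was the 1 gene of that list that fell with centring.

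Of 12 regulators that bind or act through the CHR, 4 rose and 1 did with centring, against 39.0% and 10.2% of all genes, so their share was near that of all genes. Those that rose were FOXM1, the activator of late cell cycle genes, by 0.77, E2F4 by 0.37, LIN54, the CHR-binding subunit, by 0.33 and RBBP4 by 0.26. FOXM1 alone rose with centring, while MYBL2 and TFDP2 fell. Of 10 genes of the G1/S transition, 8 were tested and 4 fell, where 0.918% of all genes did: E2F1 by 0.66, MCM6 by 0.49, MCM2 by 0.37 and MCM3 by 0.34. The estimate of 1 of the 8 lay above 0. With centring 7 of the 8 fell, where 10.5% of all genes did. At 19 h against 16 h in Ser2, 7 of these 8 rose, where 85.9% of all genes did.

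The effect of ATRi over the 3 hours was tested within each antibody with hour as a block. In total RNAPII none of the 12031 genes was called in either direction (0%) by limma, edgeR or DESeq2, and 204 genes were higher and 0 lower at an unadjusted p below 0.05 in limma. The 10 genes lay between 0.25 ± 0.24 for PTTG1 and 0.42 ± 0.22 for CDC20 (log2, limma adjusted p = 0.767 for each gene), with a median of 0.32 against 0.18 for all genes. The estimates were smaller without the 22 h libraries: the median of the 10 was 0.14, against 0.02 for all genes, with CDC20 at 0.15, AURKB at 0.0094 and PTTG1 at -0.12. BUB1, at 0.40 ± 0.19, was the 1 gene of the 10 with an unadjusted p below 0.05.

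Hour by hour, the ratios are those of 1 library to another, with no test. At 16 h the ratios of ATRi to DMSO lay between -0.12 for PTTG1 and 0.33 for CDC20, and at 19 h between -0.14 for AURKB and 0.14 for AURKA. At 22 h all 10 lay above 0, between 0.47 for AURKA and 1.00 for AURKB. PTTG1 was at 0.97, CDC20 at 0.94, BIRC5 at 0.88 and UBE2C at 0.87 at that hour. At 22 h, 8 of the 10 were past 1.5-fold, where 40.7% of all genes were, and the share of reads in listed genes was 57.4% with ATRi and 42.8% with DMSO. Relative to the median gene, 0.50 at that hour, 0 of the 10 were past 1.5-fold (1.78% of all genes), with AURKB at 0.49, PTTG1 at 0.47, CDC20 at 0.43 and AURKA and NEK2 at -0.03 each.

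AURKA, BUB1, BUB1B, TTK and NEK2, the 5 longer genes, had ATRi above DMSO at all 3 hours in total RNAPII, where 18.0% of all genes did. Of the 5 shorter genes, none did: each had ATRi below DMSO at 19 h, with log2 ratios between -0.14 (AURKB) and -0.02 (CDC20). For all of these 5 but AURKB the 95% counting interval of that ratio included no difference. Among the 5 longer genes the interval also included no difference for TTK and NEK2 at 16 h and for BUB1 and NEK2 at 19 h. Relative to the median gene 4 of the 10 were above at all 3 hours, where 8.33% of all genes were, namely BUB1, BUB1B, TTK and CDC20.

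**Figure D5:**
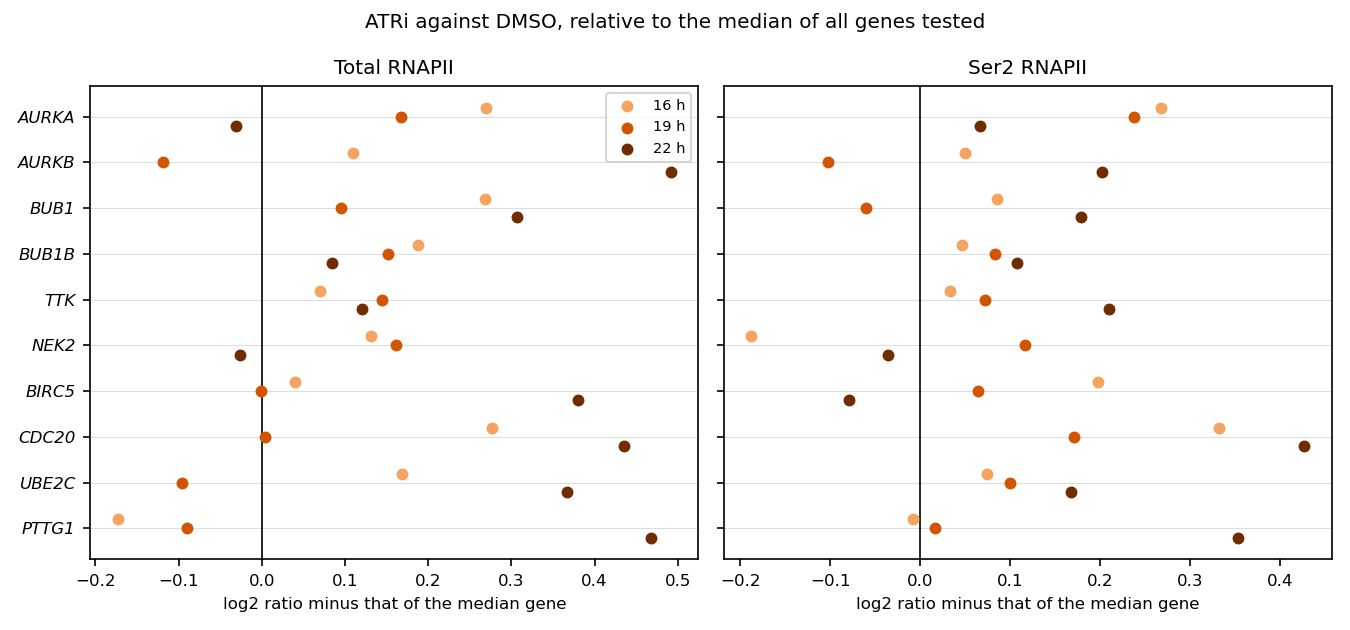
Log2 ratio of RPM with ATRi to RPM with DMSO minus that of the median gene (x) for each gene (y) at 16, 19 and 22 h (light to dark), 1 pair of libraries per point, total RNAPII at left and Ser2 at right. In total RNAPII at 22 h AURKB, PTTG1 and CDC20 lie at 0.43 to 0.49, and AURKA and NEK2 at -0.03.

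In Ser2 none of the 11989 genes was called in either direction (0%) by limma, and 2630 were higher and 25 lower at an unadjusted p below 0.05. On whole reads edgeR called 0 genes, and DESeq2, which gave no adjusted p to 10924 of them, called 0 higher and 16 lower, none of the 10 among them. The 10 genes lay between 0.06 ± 0.10 for NEK2, which turned to -0.05 with median centring, and 0.41 ± 0.09 for CDC20. CDC20 came closest to the threshold (limma adjusted p = 0.0824, ATRi above DMSO at 3 of 3 hours), followed by AURKA at 0.29 ± 0.08 (0.0916, 3 of 3 hours). ELOVL1, the neighbour of CDC20, stood at 0.40 ± 0.09 (limma adjusted p = 0.0824). Without the 16 h libraries CDC20 passed at 0.41 (limma adjusted p = 0.0409), where 0.316% of all genes were called higher, and without the 19 h libraries at 0.49 (0.0027), where 7.09% were. Without the 22 h libraries it stood at 0.31 (limma adjusted p = 0.464) and with median centring at 0.30 (0.247).

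In Ser2, 8 of the 10 genes had ATRi above DMSO at all 3 hours by sign alone, where 42.6% of all genes did. The exceptions were AURKB (-0.04 at 19 h) and NEK2 (-0.13 at 16 h), both with a counting interval that included no difference. BUB1 was level at 19 h, with a log2 ratio of 0.00034. The counting interval also included no difference for BUB1, BUB1B, TTK, UBE2C and PTTG1 at 16 h. The same held for BUB1, UBE2C and PTTG1 at 19 h and for BIRC5 at 22 h. Only AURKA and CDC20 had intervals above no difference at each hour. Relative to the median gene 5 of the 10 had ATRi above DMSO at all 3 hours (AURKA, BUB1B, TTK, CDC20 and UBE2C). Of all genes, 16.0% did. At 22 h the ratio was 0.59 for CDC20, 0.52 for PTTG1, 0.37 for AURKB and 0.08 for BIRC5, against 0.16 for the median gene.

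The difference of the ATRi effect between antibodies, Ser2 minus total, called 0 of 12013 genes (0%) with limma, edgeR and DESeq2, with 4 genes higher and 5 lower at an unadjusted p below 0.05 in limma. The 10 genes stood between -0.24 ± 0.20 for BUB1 and -0.01 ± 0.25 for CDC20, with a median of -0.13 against -0.06 for all genes. This direction turned on the 22 h libraries: without them the median of the 10 was 0.05, as it was for all genes, and 6 of the 10 lay above 0. With median centring and with DESeq2, 3 of the 10 lay above 0, CDC20 among them at 0.05 in both, and with edgeR 4 did.

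Ser2 relative to total RNAPII was low over the 4 shortest genes at 16 h. With ATRi at 16 h the log2 ratio of Ser2 to total, minus that of the median gene, was -0.66 for AURKB, -0.52 for CDC20, -0.48 for UBE2C and -0.43 for PTTG1, and with DMSO it was -0.60, -0.58, -0.39 and -0.60 for the same genes. BUB1B and TTK stayed within 0.13 of the median gene in all 7 conditions, and NEK2 was highest at 16 h with DMSO, at 0.57. At 22 h the 10 genes ran between -0.46 and 0.09 with ATRi and between -0.27 and 0.10 with DMSO. These are ratios of 1 library to 1 library, with no test.

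Between 14 h and 16 h only single libraries can be set side by side. In total RNAPII at 16 h with DMSO all 10 genes were above their 14 h level, by 0.09 (NEK2) to 0.77 (AURKB) on the log2 scale, with a median of 0.37 against 0.26 for all genes, and 3 were past 1.5-fold (8.29% of all genes). In Ser2 the same ratio had a median of -0.13 against -0.07 for all genes, with 3 of the 10 above 0. AURKB thus had 21.9 RPM at 16 h with DMSO, against 12.6 RPM at 14 h, in total RNAPII and 9.20 RPM, against 9.97 RPM, in Ser2.

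Genes with the most similar profile over the 14 libraries were looked for among 10489 named genes, by Pearson's r with the mean of the 10 genes after centring on the library median and on each antibody. The 5 highest were LOC100288637 (0.991), whose span also covers ARHGAP11B, HJURP (0.985), the chaperone of the centromeric histone CENP-A, MKI67 (0.984), the Ki-67 proliferation antigen, CDCA8 (0.984), borealin of the passenger complex, and INCENP (0.982). All points share libraries, so these are descriptions. Of the 10 genes, BUB1B (0.968) and BUB1 (0.961) followed the mean of the other 9 most closely, AURKA (0.616) and TTK (0.676) less so, and NEK2 (-0.09) did not follow it.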

How the data were processed

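The authors deposited 1 table of reads per 1000000 library reads (RPM) over each gene span. Per the submitters' processing notes, the tools were Bowtie2 2.3.3.1 and SAMtools 1.4 and the build hg38. The counting tool, annotation, gene choice and treatment of duplicates are not given in the sources used here, and no input or spike-in was used here. Every deposited RPM value was a whole multiple of its column's step (100% of values, tolerance 0.01 reads), which gave whole reads and library totals. Of the 12425 genes, 14 mitochondrial ones were left out. Symbols were assigned by position against RefSeq (Jaccard index of at least 0.8, or 0.5 with an end within 100 bp), naming 10734 genes (86.4%).

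Tests used limma 3.58.1 (trend, two-sided, R 4.3.3) on log2(RPM + 0.5), on genes whose mean reached 1 RPM, all 10 included, with Benjamini-Hochberg adjustment over all genes and a threshold of 0.05. ATRi was tested against DMSO with hour as a block over 6 libraries per antibody. Hours were tested with treatment as a term. The SE is limma's moderated one. Alternatives were other pseudocounts and filters, median centring, removal of the trend with read density, edgeR 4.0.16 (TMM) and DESeq2 1.42.0 on whole reads, scaling to reads in listed genes, which was chosen after seeing the data, and leaving out each hour. The limma and edgeR fits on the deposited scale were run on simulated data with independent noise and no shift shared by all genes. That setting differs from these libraries, so it does not vouch for the calls. DESeq2 and the other scalings were not simulated. Intervals are 95% Poisson ones and cover counting error only, and 3 reads corresponded to 0.0481 to 0.175 RPM. Figures used matplotlib 3.10.9.

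The 10 genes and all lists were chosen with earlier results of these data known. The text names all 10. Of each list it names the 2 called genes with the highest and the 2 with the lowest estimate, besides PKMYT1, MYBL2 and TFDP2, which were named after their values were seen. It also names the 5 genes most like the 10 in profile and their nearest listed neighbours. Promoter windows with a CHR motif were printed.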

Additional observations from a re-analysis of the deposited data

Results flagged for a closer look

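Each difference in this part sets 1 library of each condition against another, and none was tested. In total RNAPII the log2 ratio of ATRi to DMSO had opposite signs at different hours for the 5 shorter genes. The 95% counting interval of the 19 h ratio included no difference for BIRC5, CDC20, UBE2C and PTTG1. Relative to the median gene at 19 h, BIRC5 was at -0.00083, CDC20 at 0.0041, PTTG1 at -0.089, UBE2C at -0.096 and AURKB at -0.12. On the deposited scale AURKB was at -0.14 (the ratio was -0.145) at 19 h, against 1.00 at 22 h and 0.16 at 16 h. BIRC5 was at -0.03 (-0.0266) at 19 h, 0.88 at 22 h and 0.09 at 16 h. CDC20 was at -0.02 (-0.0217) at 19 h, 0.94 at 22 h and 0.33 at 16 h, and UBE2C at -0.12 (-0.122) at 19 h, 0.87 at 22 h and 0.22 at 16 h. PTTG1 was at -0.12 at both 16 h (-0.119) and 19 h (-0.115), and at 0.97 at 22 h. In Ser2, AURKB was at -0.04 (-0.0409) at 19 h, 0.37 at 22 h and 0.11 at 16 h, and NEK2 at -0.13 (-0.125) at 16 h, 0.18 at 19 h and 0.13 at 22 h.

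The ratio of 22 h to 16 h in total RNAPII had opposite signs in the 2 treatments for 3 genes. TTK was at 0.46 with ATRi and -0.04 (-0.0435) with DMSO, BIRC5 at 0.65 with ATRi and -0.14 (-0.138) with DMSO, and PTTG1 at 0.77 with ATRi and -0.32 (-0.317) with DMSO. The ratio of 22 h to 19 h did so for AURKA, at 0.03 with ATRi and -0.30 (-0.296) with DMSO, and for BUB1, at 0.04 with ATRi and -0.70 (-0.704) with DMSO. Relative to the median gene of the same pairs, both of these genes were above 0 with both treatments. For 22 h against 16 h with DMSO, TTK stood at 0.21, BIRC5 at 0.12 and PTTG1 at -0.06 relative to the median gene.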

How the results depend on the processing

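Of 753 single-gene values under alternatives, for 64 results, 632 kept their direction and side of the threshold or moved by less than their error, 53 no longer passed, 11 passed newly, 24 moved and 33 changed sign. The 10 calls in Ser2 at 22 h against 16 h became 8 with median centring, edgeR, DESeq2 and listed-gene scaling and 7 with the density trend removed. In total RNAPII at 22 h against 16 h, 0 calls became 7 with the density trend removed and 1 with DESeq2. At 19 h against 16 h, the 8 calls in total RNAPII became 2 with centring, 2 with the trend removed and 1 each with edgeR, DESeq2 and listed-gene scaling, and the 9 in Ser2 became 1 with the trend removed. At 22 h against 19 h the 3 lower calls in total RNAPII gave way to higher ones, 1 with centring, 5 with the trend removed and 1 each with edgeR, DESeq2 and listed-gene scaling, and to 0 without the 16 h libraries. In Ser2 the 8 lower calls gave way to 3 calls with centring (2 of them higher), 5 higher with the trend removed, 2 higher with edgeR, 2 higher with DESeq2 and 3 (2 higher) with listed-gene scaling. For ATRi in Ser2, leaving out 1 hour gave 0 to 1 calls.

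For values given gene by gene, signs changed as follows on the log2 scale. For ATRi in total RNAPII, PTTG1 came to -0.037 with the trend removed, and leaving out 1 hour gave -0.117 to 0.428. For ATRi in Ser2, NEK2 came to -0.050 with centring, -0.023 with edgeR and -0.019 with listed-gene scaling, the lowest estimate of the 10 with DESeq2 was -0.050, and with the trend removed AURKB came to -0.094, BIRC5 to -0.051 and UBE2C to -0.0075. The ATRi effect in Ser2 minus total for CDC20 came to 0.053 with centring, 0.060 with the trend removed, 0.093 with edgeR, 0.049 with DESeq2, 0.070 with listed-gene scaling and -0.14 to 0.16 with 1 hour left out. At 19 h against 16 h in total RNAPII, NEK2 came to -0.36 with centring, -0.21 with the trend removed, -0.40 with edgeR, -0.42 with DESeq2 and -0.35 with listed-gene scaling, and AURKA to -0.077 with the trend removed and -0.013 with DESeq2. In Ser2, NEK2 came to -0.65 with centring, -0.28 with the trend removed, -0.69 with edgeR, -0.71 with DESeq2 and -0.59 with listed-gene scaling, AURKA to -0.12, -0.22, -0.14, -0.16 and -0.066 in the same order, and TTK to -0.021 with the trend removed and -0.0046 with DESeq2. At 22 h against 19 h, 1 of the 10 estimates lay above 0 with each antibody on the deposited scale. With centring, the trend removed, edgeR, DESeq2 and listed-gene scaling, in that order, 7, 10, 7, 8 and 5 did in total RNAPII and 6, 10, 6, 6 and 6 in Ser2. For the ATRi effect in Ser2 minus total, 0 of the 10 lay above 0, and 6 did without the 22 h libraries. The scalings take out a shift common to all genes by their construction, and the cause of the other changes was not tested.

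No paired analysis was possible because replicate numbers exist in no group, each being 1 library; the tests of ATRi already pair the libraries by hour. Each of the 10 genes held at least 74 reads in any library, and no group had a replicate, so hours or treatments stood in for one.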
